A study of Mus musculus with 32 samples.

Results

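The 77 genes described here encode mitochondrial ribosomal proteins, and they were taken by name, as every symbol that begins with Mrpl or Mrps followed by a number. They are 77 of the 24028 gene symbols with an RNA level in both libraries, 48 of them named for the large subunit (Mrpl) and 29 for the small subunit (Mrps). None of the 77 symbols was listed more than once. The study asked how Polycomb keeps long stretches of DNA free of methylation in mouse embryonic stem cells (mESCs), the pluripotent cells of the early embryo kept in culture. Its RNA-seq compared WT mESCs with mESCs labelled Eed -/-, and EED is the subunit of Polycomb repressive complex 2 that binds methylated histone H3. Each genotype had 1 library. The labels give the line TT2 for both RNA-seq samples, whereas Eed -/- samples of the other assays carry the name of a different line, and both cultures were grown in serum with leukemia inhibiting factor on gelatinized plates. Differences between these libraries therefore have no replicate check, and genotype, culture and library cannot be told apart.

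Mitochondrial ribosomes translate the few proteins encoded by mitochondrial DNA, all of them subunits of the oxidative phosphorylation complexes. The ribosomal RNAs are made inside the organelle, but every ribosomal protein is encoded in the nucleus, made in the cytosol and imported. Part of the proteins descend from bacterial ribosomal proteins and the rest were added in the mitochondrial lineage. The large subunit forms peptide bonds and the small subunit decodes the message.

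The deposited level is FPKM, fragments normalized for the length of the transcript and the size of the library, so levels can be compared between genes per unit length. The files hold no counts, and the depth was recovered from the steps between low values, giving about 7240000 fragments for WT and about 6450000 for the library labelled Eed-/-. The gene Eed itself was at 63.0 FPKM in WT against 70.9 in the library labelled Eed-/-, so its transcript level does not separate the genotypes. The paper checked the loss of Eed through H3K27me3, the histone mark set by Polycomb repressive complex 2, with western blots and ChIP-seq. The 7 mESC markers lay between 52.6 and 393 FPKM in WT, and between 49.2 and 373 in the library labelled Eed-/-. Of these 7 markers 3 (42.9%) lay past 1.5-fold on the higher side in the latter library, on the scale used below, beside 12.3% of all genes compared. They were Zfp42 (131 against 272 FPKM), Nanog (114 against 176) and Dppa5a (250.4 against 372). On that scale 2 markers were lower, Utf1 (166.8 against 106.4 FPKM, a difference of -0.38) and Tdgf1 (a difference of -0.004). In the FPKM as deposited 2 of the 7 lay past 1.5-fold on the higher side and 1, Utf1, on the lower side. The 7 markers summed to 1232 FPKM in WT against 1451 in the library labelled Eed-/-. Of the 8 fibroblast markers, Dcn was listed at 0 in both libraries and the summed level was 2.3 FPKM in WT against 8.05 in the library labelled Eed-/-, most of the latter from Thy1. Summed levels were 1.70 and 4.52 FPKM for 7 primitive endoderm markers, and 48.7 and 15.4 for 7 trophoblast markers, mostly from Tfap2c. The part of these differences in the results below was not tested.

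Most mitochondrial ribosomal protein genes were expressed at moderate to high levels. The median level was 38.3 FPKM in WT against 36.0 in the library labelled Eed-/-, and 58 of the 77 genes were at 20 FPKM or more in both. The highest level in both libraries was that of Mrpl12, which encodes the stalk protein that contacts translation factors, with 160 FPKM in WT against 181 in the library labelled Eed-/-. Next in WT came Mrpl52, a protein with no bacterial counterpart, at 130 FPKM in WT against 82.7 in the library labelled Eed-/-. Mrpl20, the homologue of bacterial L20, was at 111 FPKM in WT against 130 in the library labelled Eed-/-. Mrpl42, another protein of the mitochondrial lineage, was at 86.5 and 93.0 FPKM, the third highest large subunit gene of the library labelled Eed-/-.

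Among small subunit genes Mrps24, the homologue of bacterial S3, was the highest in both libraries, with 129 FPKM in WT against 140 in the library labelled Eed-/-. The places below it changed hands between the libraries. In WT they were held by Mrps16 (85.6 FPKM, against 59.5 in the library labelled Eed-/-) and Mrps30 (65.6 against 49.96). In the library labelled Eed-/- they were held by Mrps12 (83.6 FPKM, against 54.7 in WT) and Mrps5 (76.3 against 58.9). Both belong to the part of the ribosome that checks the match between codon and tRNA.

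At the low end Mrpl23, the homologue of a protein at the mouth of the exit tunnel, was at 0.338 FPKM in WT, about 1.25 fragments, and was listed at 0 in the library labelled Eed-/-. No fold is given for it. Other low large subunit genes were Mrpl41 (6.15 FPKM in WT against 6.12 in the library labelled Eed-/-), Mrpl17 (8.68 and 12.3), Mrpl48 (9.13 and 8.06), Mrpl35 (9.18 and 10.7), Mrpl57 (9.68 and 8.25) and Mrpl19 (12.2 and 7.96). Low small subunit genes were Mrps33 (2.68 and 1.42), Mrps36 (3.85 and 6.65) and Mrps25 (7.48 and 13.1). MRPS36 is absent from structures of the mitochondrial ribosome and is now known as a subunit of the alpha-ketoglutarate dehydrogenase complex.

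The order of the genes was much alike in the libraries. Over the 77 genes the Spearman correlation of the normalized levels was 0.906 and the Pearson correlation of log2(FPKM + 1) was 0.939, a description over genes that share the same libraries. The 10 highest genes of WT held 29.5% of the summed level, and 7 of them were among the 10 highest of the library labelled Eed-/-.

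**Figure D1:**
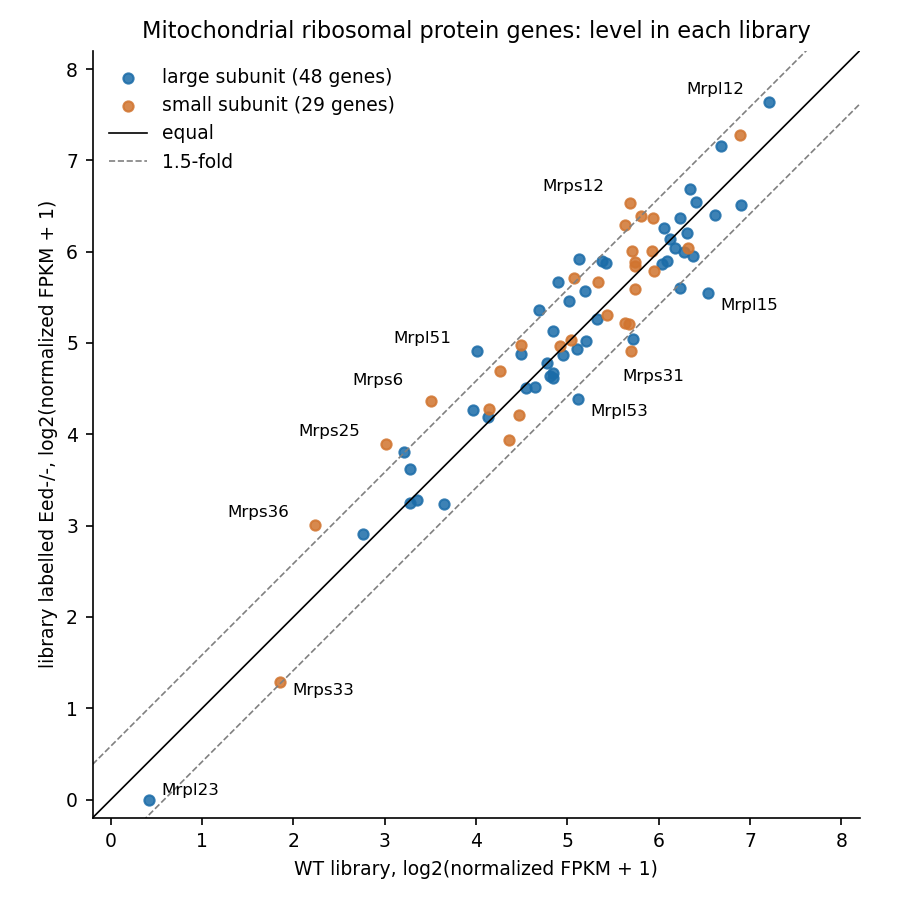
Each point is 1 of the 77 genes, with log2(quantile-normalized FPKM + 1) in the WT library on the x axis and in the one labelled Eed-/- on the y axis. The solid line marks equal levels and the dashed lines a difference of 1.5-fold, and 12 genes lie on or above the upper dashed line and 5 on or below the lower one. Mrpl23, at the lower left, is listed at 0 in the library labelled Eed-/-.

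To compare the libraries, their FPKM were quantile-normalized and the difference in log2(FPKM + 1), Eed-/- minus WT, was computed for each gene. This scale understates the difference of genes at low levels. Of the 77 genes, 41 were higher in the library labelled Eed-/- and 36 lower, with a median difference of 0.05 (95% order-statistic interval over genes -0.10 to 0.20). The median over all 14835 genes with a mean level of at least 0.1 FPKM was 0.01. The quartiles of the 77 genes were -0.18 and 0.42, and 32 differed by less than 0.25 in either direction.

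With 1 library per genotype, a gene was called when it differed by at least 1.5-fold on this scale. In the library labelled Eed-/- 12 of the 77 genes (15.6%) were at least 1.5-fold higher, beside 12.3% of all genes compared, and 5 (6.49%) were at least 1.5-fold lower, beside 12.4%. None was 2-fold higher, beside 3.8% of all genes, and none was 2-fold lower, beside 3.98%. Mrpl15 was 2-fold lower as deposited, with median-ratio scaling and with each smaller pseudocount, Mrps31 was as deposited, and Mrpl23 was with each smaller pseudocount. Genes at low levels differ more by counting alone, so the same shares were taken at a mean level of at least 10 FPKM. There 11 of 70 genes (15.7%) were at least 1.5-fold higher, beside 11.5% of all 4957 such genes, and 5 (7.14%) were lower, beside 12.2%. The share called higher was slightly above that of all genes and the share called lower was below it. No test of these shares was made.

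The direction of the middle of the group depended on the scaling. In the FPKM as deposited the median difference of the 77 genes was -0.16, with 29 higher and 48 lower, and that of all genes with a mean level of at least 10 FPKM was -0.17. With median-ratio scaling the medians were 0.00 and -0.02. Of the 77 genes, the 70 with a mean level of at least 10 FPKM had medians of 0.07 after quantile normalization, -0.13 as deposited and 0.03 with median-ratio scaling, beside 0.01, -0.17 and -0.02 for all genes at such levels. Across the 3 scalings 29 of the 77 genes were higher in each and 36 were lower in each. The summed level was 3658 FPKM in WT against 3331 in the library labelled Eed-/- as deposited, a ratio of 0.91, and the ratio was 1.06 after quantile normalization.

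Approximate fragment numbers show how far counting error reaches for each gene. The median gene rested on 271 fragments in WT against 237 in the library labelled Eed-/-. The 95% counting interval of the difference (exact Clopper-Pearson) excluded 0 for 39 of the 76 genes for which it could be computed, 26 higher and 13 lower. These intervals cover counting error only, and leave out the spread between cultures, which cannot be estimated here.

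Of the 48 large subunit genes 5 were called higher. Mrpl51, a protein of the mitochondrial lineage, was at 15.9 FPKM in WT against 27.1 in the library labelled Eed-/-, a difference of 0.90 (counting interval 0.69 to 1.11). Mrpl32, which the m-AAA protease must trim before it joins the ribosome, was at 36.3 and 54.6 FPKM, a difference of 0.80 (0.50 to 1.10). Mrpl36, the homologue of a small zinc-binding bacterial protein, was at 30.8 and 45.4 FPKM, a difference of 0.76 (0.47 to 1.06). All 3 moved up the order of the 77 genes, Mrpl51 from place 65 to 50, Mrpl32 from 41 to 22 and Mrpl36 from 49 to 32. Mrpl43, a mitochondrial addition, was at 26.4 and 37.3 FPKM, a difference of 0.67 (0.36 to 0.98). Mrpl17, the homologue of bacterial L17, was at 8.68 and 12.3 FPKM, a difference of 0.60 (0.37 to 0.84). In the FPKM as deposited Mrpl36 (0.55), Mrpl32 (0.58), Mrpl43 (0.48) and Mrpl17 (0.46) were still higher in the library labelled Eed-/- but under 1.5-fold.

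Large subunit genes called lower numbered 4. Mrpl15, the homologue of bacterial L15, had the largest difference of all 77 genes, with 99.3 FPKM in WT against 42.2 in the library labelled Eed-/-, a difference of -0.99 (-1.11 to -0.87). It stood at place 6 of the levels in WT and at place 36 in the other library, and it rested on about 2060 and 782 fragments. Mrpl53, a mitochondrial addition, was at 36.2 and 18.6 FPKM, a difference of -0.74 (-1.20 to -0.28), but its exons overlap those of Ccdc142 on the same strand, so its value is uncertain. Mrpl44, which carries a fold like that of ribonuclease III, was at 55.8 and 29.7 FPKM, a difference of -0.67 (-0.89 to -0.45). Mrpl10, which anchors the stalk, was at 80.2 and 43.7 FPKM, a difference of -0.63 (-0.84 to -0.44). All 4 were at least 1.5-fold lower in each of the 3 scalings.

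The stalk of the large subunit thus held genes on both sides. Mrpl12, the repeated stalk protein, was at 160 FPKM in WT against 181 in the library labelled Eed-/-, a difference of 0.42 (0.31 to 0.54). Mrpl10 was at 80.2 and 43.7 FPKM. Mrpl11, at the stalk base, was at 28.9 and 22.4 FPKM, a difference of -0.17 (-0.55 to 0.21) that lay within counting error. In the FPKM as deposited the differences of Mrpl12 and Mrpl10 were 0.18 and -0.86, also on opposite sides of 0.

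Of the 29 small subunit genes 7 were called higher. Mrps25, a mitochondrial addition, was at 7.48 FPKM in WT against 13.1 in the library labelled Eed-/-, a difference of 0.88 (0.69 to 1.07). Mrps6, the homologue of bacterial S6, was at 10.95 and 18.3 FPKM, a difference of 0.85 (0.36 to 1.36), but its exons overlap those of Slc5a3 on the same strand and its value is uncertain. Mrps12, the homologue of a protein of the decoding centre, was at 54.7 and 83.6 FPKM, a difference of 0.85 (0.59 to 1.11), and it moved from place 30 of the 77 levels to place 6. Each of these 3 genes lay past 1.5-fold in all 3 scalings. Mrps36 was at 3.85 and 6.65 FPKM, a difference of 0.77 with a counting interval of -0.12 to 1.80, since it rested on about 12.7 and 19.6 fragments and has a near-identical copy in the genome. It was the gene called higher whose counting interval held 0. Mrps5, the homologue of bacterial S5, which takes part in decoding accuracy, was at 58.9 and 76.3 FPKM, a difference of 0.59 (0.46 to 0.71), just inside the 1.5-fold threshold. It was under 1.5-fold as deposited (0.37) and with median-ratio scaling (0.53).

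The 3 genes named for ribosomal protein S18 differed among themselves. Mrps18a was at 52.7 FPKM in WT against 71.2 in the library labelled Eed-/-, a difference of 0.66 (0.40 to 0.92). Mrps18c was at 34.9 and 46.8 FPKM, a difference of 0.64 (0.28 to 1.00). Mrps18b was at 31.2 and 28.3 FPKM, a difference of 0.05 (-0.30 to 0.41). In structures of the mitochondrial ribosome MRPS18C takes the place of bacterial S18, MRPS18B sits elsewhere in the small subunit and MRPS18A is found in the large subunit. The counting interval of Mrps18b overlapped those of both others. Mrps18a and Mrps18c were under 1.5-fold as deposited (0.43 and 0.42) and with median-ratio scaling, where Mrps18a was just short of it and Mrps18c was at 0.57.

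Mrps31, a mitochondrial addition, was the small subunit gene called lower. It was at 55.1 FPKM in WT against 27.1 in the library labelled Eed-/-, a difference of -0.78 (-1.003 to -0.57), and it lay past 1.5-fold in all 3 scalings. Mrps33 was at 2.68 and 1.42 FPKM, a difference of -0.56 whose counting interval of -1.32 to 0.52 held 0. Mrps30, named for the small subunit but placed in the large subunit by structures, was at 65.6 and 49.96 FPKM, a difference of -0.16 (-0.34 to 0.01).

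**Figure D2:**
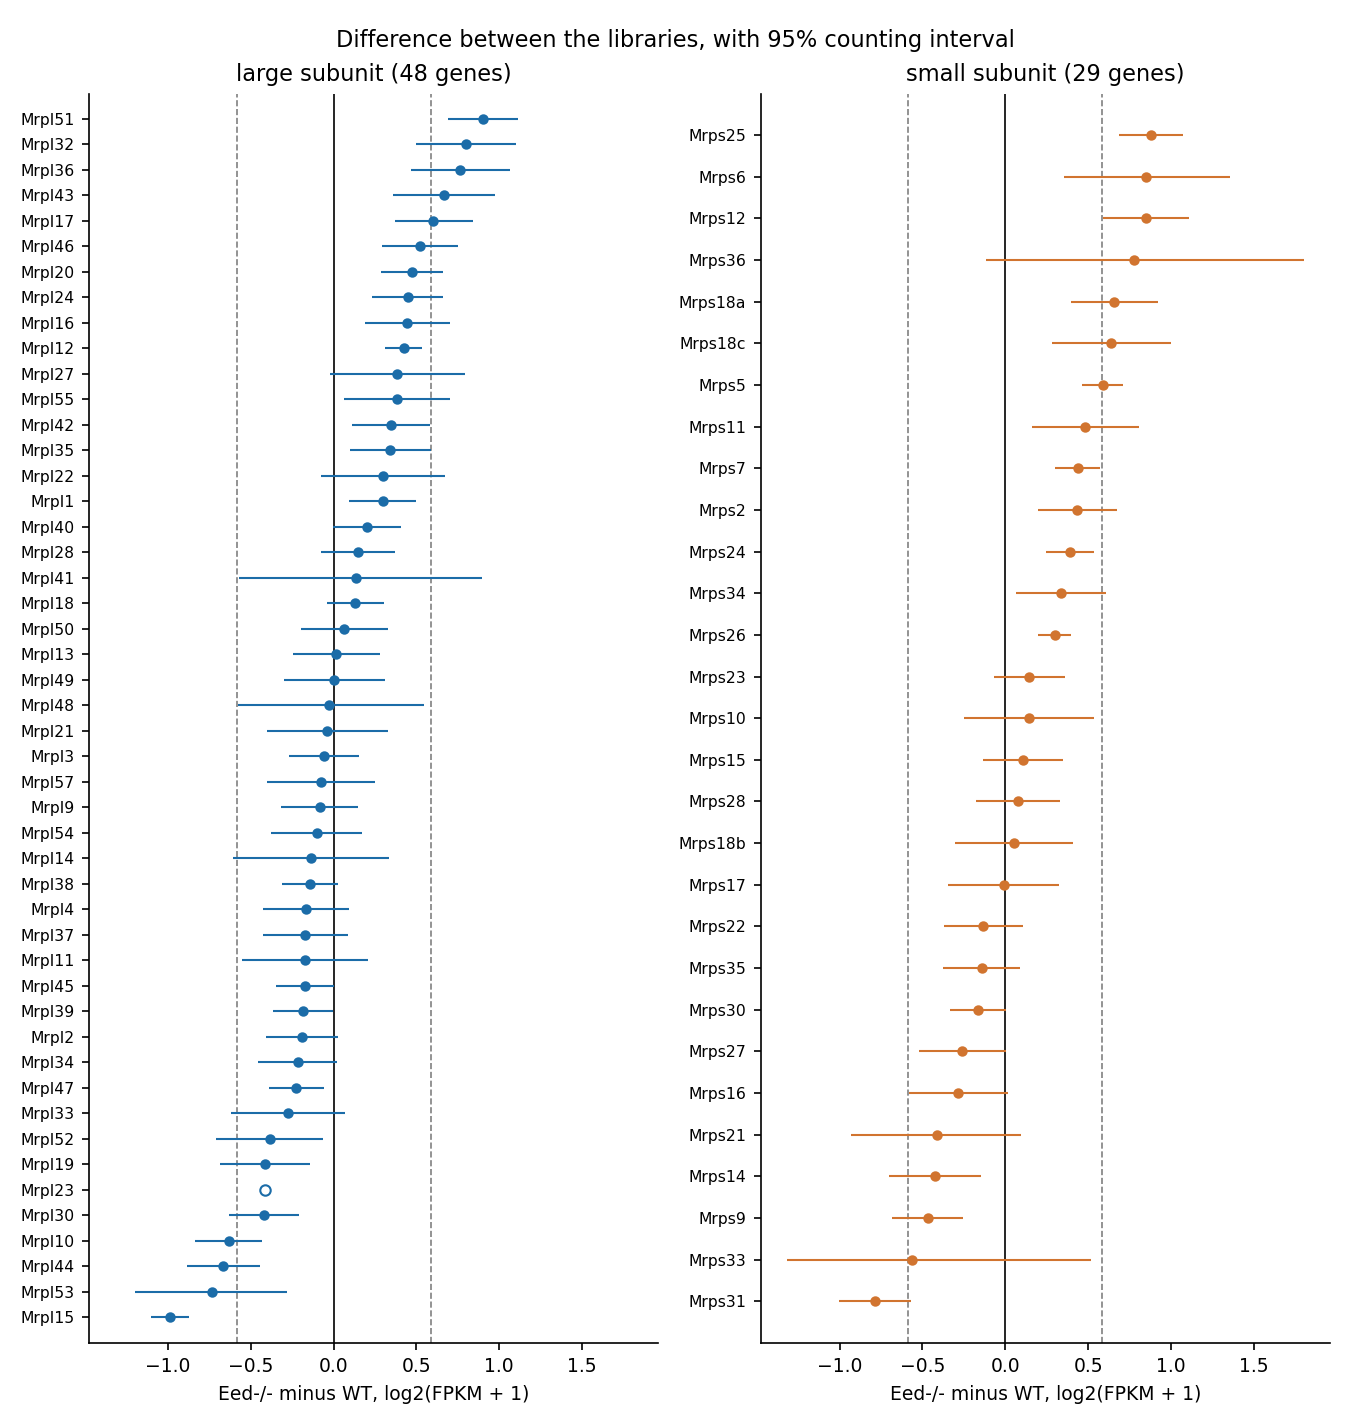
Differences in log2(quantile-normalized FPKM + 1), Eed-/- minus WT, for the 48 large subunit genes on the left and the 29 small subunit genes on the right, each ordered by its difference. Bars are 95% counting intervals, dashed lines mark 1.5-fold, and the open circle is Mrpl23, which has no interval because it is listed at 0 in the library labelled Eed-/-. Mrpl51 and Mrps25 lie at the top of their panels and Mrpl15 and Mrps31 at the bottom.

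The subunits were compared by their medians. The large subunit genes had a median difference of -0.03 (-0.17 to 0.20, order-statistic interval over 48 genes), with 23 higher and 25 lower, and the small subunit genes had 0.14 (-0.14 to 0.44, 29 genes), with 18 higher and 11 lower. The intervals overlapped over most of their length. Like every order-statistic interval given here, they describe the spread over genes that share the same 2 libraries. They do not measure the uncertainty of a difference between genotypes. Both medians moved with the scaling, to -0.20 and -0.09 in the FPKM as deposited and to -0.05 and 0.07 with median-ratio scaling, so the small subunit median changed sign while the large subunit median stayed below it. The large minus small difference was -0.17 after quantile normalization and -0.12 as deposited. Among large subunit genes 5 of 48 (10.4%) were at least 1.5-fold higher and 4 (8.33%) lower, and among small subunit genes 7 of 29 (24.1%) were higher and 1 (3.45%) lower, beside 12.3% and 12.4% of all genes compared. Both as deposited and with median-ratio scaling 4 of the 29 small subunit genes (13.8%) were called higher. Of the large subunit genes 1 (2.08%) was as deposited and 5 (10.4%) were with median-ratio scaling. Of all genes with a mean level of at least 10 FPKM, 6.42% were called higher as deposited and 10.7% with median-ratio scaling. As deposited 4 small (13.8%) and 6 large subunit genes (12.5%) were called lower, beside 19.7% of all genes at such levels. With median-ratio scaling 1 small (3.45%) and 4 large subunit genes (8.33%) were called lower, beside 12.9%. The share of the large subunit in the summed FPKM was 65.0% for WT and 62.7% for the library labelled Eed-/-.

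With genes assigned by their place in the ribosome structure, the medians were -0.03 for 50 large subunit genes and 0.12 for 26 small subunit genes. Split by origin, the 44 genes with a bacterial homologue had a median difference of 0.12 (-0.13 to 0.38), with 7 (15.9%) called higher and 2 (4.55%) lower. The 27 genes added in the mitochondrial lineage had a median of -0.08 (-0.17 to 0.20), with 3 (11.1%) called higher and 3 (11.1%) lower. Of all genes compared 12.3% were called higher and 12.4% lower. These intervals too overlapped, and they have the same limit.

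The genes called lower were unevenly placed on the chromosomes. In this pair of libraries genes of chromosomes 1 and 8 were lower as a whole, with a median difference of -0.49 over 281 other genes of chromosome 1 and -0.53 over 299 other genes of chromosome 8 at a mean level of at least 10 FPKM. On these chromosomes lie 7 of the 77 genes, and all 7 were lower in the library labelled Eed-/-. On chromosome 1, Mrps9 was at 54.4 FPKM in WT against 33.6 in the library labelled Eed-/-, Mrps14 at 20.8 and 13.6, Mrpl30 at 88.7 and 56.2, Mrpl15 at 99.3 and 42.2, and Mrpl44 at 55.8 and 29.7. On chromosome 8, Mrpl34 was at 107 and 76.8 FPKM and Mrps31 at 55.1 and 27.1. Their median difference was -0.47, within 0.07 of the medians of their chromosomes, and 3 of the 5 genes called lower (Mrpl15, Mrpl44 and Mrps31) were among them. These 3 are 42.9% of the 7 genes, while 27.5% of all genes compared on chromosome 1 and 34.3% on chromosome 8 were called lower. Lower at all were 572 of 803 genes compared on chromosome 1 and 597 of 757 on chromosome 8. The part of the chromosome-wide difference in the values of the 7 genes was not tested.

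On the other chromosomes 12 of 70 genes (17.1%) were called higher, beside 13.2% of all genes compared there, and 2 (2.86%), Mrpl53 and Mrpl10, were called lower, beside 10.1%. The 70 genes had a median difference of 0.12, beside 0.04 for all genes compared there and 0.07 for those with a mean level of at least 10 FPKM. Of the latter 12.7% were called higher and 7.89% lower. The subunit medians there were 0.01 for 44 large and 0.22 for 26 small subunit genes. Mrpl10 is on chromosome 11, where the other 9 genes lay between -0.17 and 0.44. Chromosome 13 carries 3 of the genes called higher, Mrpl32, Mrpl36 and Mrps36, with differences of 0.76 to 0.80, but also Mrps30 at -0.16 and Mrps27 at -0.26. Of these, Mrpl32 and Mrps36 have a near-identical copy in the genome. Of all genes compared on chromosome 13, 15.0% were called higher. The median of 195 other genes of chromosome 13 at a mean level of at least 10 FPKM was 0.16. None of the 77 genes lies on a sex chromosome.

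**Figure D3:**
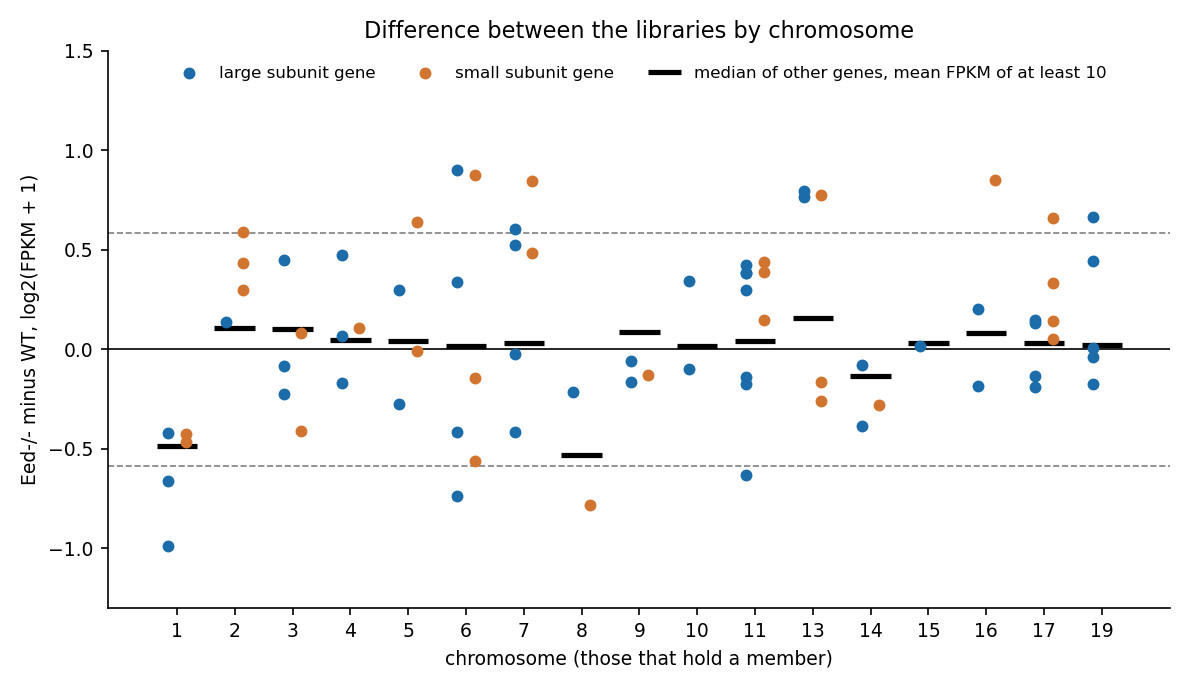
Each point is 1 of the 77 genes, placed by its chromosome on the x axis and its difference in log2(quantile-normalized FPKM + 1), Eed-/- minus WT, on the y axis. Black bars mark the median of the other genes of that chromosome with a mean level of at least 10 FPKM, and dashed lines mark 1.5-fold. All points of chromosomes 1 and 8 lie below 0, as do the black bars there at -0.49 and -0.53.

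Many of the 77 genes share a start region with a gene on the other strand. In the annotation 29 of them (37.7%) have the start of a protein-coding gene of the opposite strand within 1000 bases, beside 10.8% of all 22380 protein-coding genes. Mrps11 and Mrpl46 form such a pair with each other, so there are 28 pairs. Mrps11 was at 22.9 FPKM in WT against 28.5 in the library labelled Eed-/-, a difference of 0.48, and Mrpl46 was at 43.4 and 53.9 FPKM, a difference of 0.52. The starts of these 2 genes, 1 for each subunit, lie 412 bases apart, and both were higher by nearly the same amount, though their exons overlap on opposite strands.

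Elsewhere the neighbours often went their own way. Gene and neighbour had the same direction in 13 of the 28 pairs. Some of these directions rest on neighbours with differences close to 0, among them Tcp1 (-0.008), Rab6 (-0.01), Ncapd2 (-0.01) and Mitd1 (0.0). The 27 neighbours outside the group had a median difference of -0.01, with 16 lower. Mrps12 was at 54.7 FPKM in WT against 83.6 in the library labelled Eed-/-. Sars2, the mitochondrial seryl-tRNA synthetase that starts 171 bases away, was at 9.90 and 7.52, a difference of -0.22 after quantile normalization. Mrpl51 was at 15.9 and 27.1 FPKM. Ncapd2, a condensin subunit whose start is 206 bases away, was at 55.3 and 46.1, a normalized difference of -0.01, so it was nearly unchanged on that scale. Mrps18c was at 34.9 and 46.8 FPKM, while the helicase gene Helq, 27 bases away, was at 7.58 and 6.05, a difference of -0.14. None of the 6 genes called higher that have such a neighbour had a neighbour called higher, and the neighbours of Mrpl32 (the proteasome gene Psma2, 0.36) and Mrpl43 (Peo1, which encodes the mitochondrial DNA helicase, 0.31) were higher by less. Mrpl44 on chromosome 1 was lower together with Wdfy1 (-0.67 and -0.75).

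**Figure D4:**
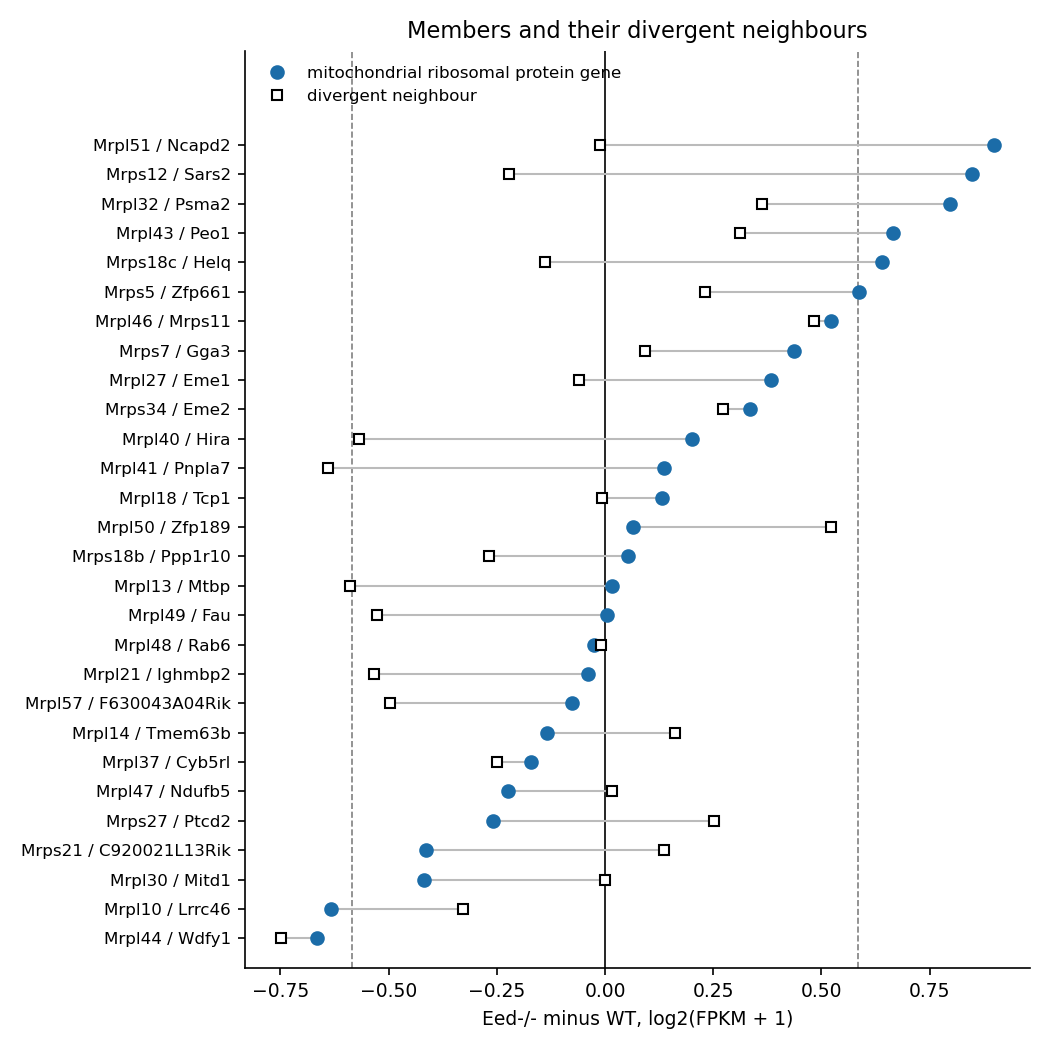
Difference in log2(quantile-normalized FPKM + 1), Eed-/- minus WT, for each of 28 pairs of genes that start within 1000 bases of each other on opposite strands. Filled circles are mitochondrial ribosomal protein genes and open squares their neighbours, joined by a line within a pair, and dashed lines mark 1.5-fold. Mrpl46 and Mrps11 lie side by side at 0.52 and 0.48, while Mrps12 and Sars2 lie at 0.85 and -0.22.

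The promoters were read for letters bound by factors known for nuclear genes of mitochondrial proteins. RefSeq start sites (GRCm38.p6) gave a promoter of 250 bases before to 50 after the start for 68 of the 77 genes, not for Mrpl4, Mrpl13, Mrpl15, Mrpl19, Mrpl38, Mrpl54, Mrps28, Mrps34 and Mrps35. Their median GC content was 58.2%, beside 52.7% for all 27025 genes with a promoter. The letters GCGCANGCG of NRF1, on either strand, were found in 16 of 68 promoters (23.5%), beside 6.47% of all. The letters CCGGAAG of ETS factors such as GABP were found in 24 (35.3%), beside 9.12%, and the letters AAGATGGCG of YY1 in 8 (11.8%), beside 1.49%. At least 1 of the 3 was present in 40 promoters (58.8%), beside 15.3% of all, in 26 of 42 large and 14 of 26 small subunit genes. A match describes the letters and is not evidence that a factor binds there.

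The genes with and without such letters overlapped in their differences. The median difference was -0.11 for 16 genes with NRF1 letters and 0.14 for 52 without, 0.01 for 24 with ETS letters and 0.14 for 44 without, and 0.37 for 8 with YY1 letters and 0.06 for 60 without. The factors' own genes were at 19.95 FPKM in WT against 15.7 in the library labelled Eed-/- for Nrf1, at 30.6 and 41.9 for Gabpa, and at 36.2 and 15.2 for Yy1.

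The promoters of 5 genes are shown, each 300 bases from 5′ to 3′ on the strand of the gene, in lower case with the NRF1, ETS or YY1 letters in capitals. They were placed on NCBIM37, the assembly also called mm9, by exact match. Mrpl12 (chr11:120345701-120346000, plus strand) is the highest gene and holds NRF1 letters on the opposite strand. Mrpl44 (chr1:79772343-79772642, plus strand) holds NRF1 letters and was among the genes called lower. Mrpl51 (chr6:125141968-125142267, plus strand) and Mrps12 (chr7:29526791-29527090, minus strand) hold ETS letters and were called higher. Mrps11 (chr7:85927767-85928066, plus strand) holds YY1 letters on the opposite strand, and its promoter window overlaps that of Mrpl46.
Mrpl12: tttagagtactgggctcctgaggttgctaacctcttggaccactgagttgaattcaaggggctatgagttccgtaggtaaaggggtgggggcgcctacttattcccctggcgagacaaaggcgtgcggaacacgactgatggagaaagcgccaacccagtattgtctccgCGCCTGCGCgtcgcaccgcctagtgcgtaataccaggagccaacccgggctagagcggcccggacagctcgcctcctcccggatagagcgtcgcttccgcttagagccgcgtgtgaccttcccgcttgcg
Mrpl44: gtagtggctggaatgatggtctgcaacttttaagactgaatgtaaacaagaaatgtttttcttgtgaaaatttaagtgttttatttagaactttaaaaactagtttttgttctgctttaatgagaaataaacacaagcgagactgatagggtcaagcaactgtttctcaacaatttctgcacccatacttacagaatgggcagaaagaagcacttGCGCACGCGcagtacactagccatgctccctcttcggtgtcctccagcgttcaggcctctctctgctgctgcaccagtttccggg
Mrpl51: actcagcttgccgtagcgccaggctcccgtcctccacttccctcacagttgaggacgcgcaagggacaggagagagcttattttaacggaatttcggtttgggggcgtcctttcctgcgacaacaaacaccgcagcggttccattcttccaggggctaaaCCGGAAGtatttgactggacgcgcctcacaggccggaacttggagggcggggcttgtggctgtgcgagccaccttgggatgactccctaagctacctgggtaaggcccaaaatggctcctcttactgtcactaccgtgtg
Mrps12: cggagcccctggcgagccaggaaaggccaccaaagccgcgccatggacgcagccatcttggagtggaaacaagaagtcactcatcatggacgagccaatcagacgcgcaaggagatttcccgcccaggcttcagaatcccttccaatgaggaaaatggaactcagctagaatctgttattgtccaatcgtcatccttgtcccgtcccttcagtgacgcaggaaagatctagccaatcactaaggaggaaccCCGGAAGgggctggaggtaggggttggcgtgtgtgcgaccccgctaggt
Mrps11: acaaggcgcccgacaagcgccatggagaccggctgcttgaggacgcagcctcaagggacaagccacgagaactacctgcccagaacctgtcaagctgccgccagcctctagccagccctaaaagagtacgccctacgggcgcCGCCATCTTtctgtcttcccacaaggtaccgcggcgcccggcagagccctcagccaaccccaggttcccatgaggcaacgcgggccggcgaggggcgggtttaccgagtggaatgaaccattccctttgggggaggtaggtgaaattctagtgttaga

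Position also limits some values. A near-identical copy elsewhere in the genome was found for 9 genes (Mrpl22, Mrpl27, Mrpl32, Mrpl41, Mrpl42, Mrps10, Mrps16, Mrps21 and Mrps36), whose fragments could be split between copies. Exons overlapped those of a gene on the opposite strand for 22 genes and on the same strand for 6, and 51 genes had no overlap. Among the genes called, Mrpl10, Mrpl43, Mrpl44 and Mrps25 overlap a gene on the opposite strand. The libraries were strand-specific, but the strand setting of the quantification is not given in the sources used here. Without the 9 genes that have a copy, 10 genes were called higher and 5 lower.

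Proteins of the mitochondrial ribosome that go by other names were set beside the 77 genes. Ict1, a peptidyl-tRNA hydrolase built into the large subunit, was at 74.5 FPKM in WT against 80.6 in the library labelled Eed-/-, a difference of 0.33. The other 5 lay between -0.55 and -0.03. Dap3, a GTP-binding protein of the small subunit, was at 19.6 and 11.7 FPKM, a difference of -0.55. Chchd1 was at 109 and 79.9 FPKM, Ptcd3 at 42.0 and 35.7, Aurkaip1 at 68.8 and 55.3 and Gadd45gip1 at 68.1 and 56.9. None of the 6 was called, and their median difference was -0.06, which was -0.28 in the FPKM as deposited.

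Lists of factors that build and run the mitochondrial ribosome were set beside the 77 genes. Of 22 assembly factors 15 were lower, with a median difference of -0.25 (-0.52 to 0.22). Of these 22 genes 1 (4.55%) was called higher, beside 12.3% of all genes compared, and 3 (13.6%) lower, near the 12.4% of all genes called lower. The 4 assembly factor genes on chromosomes 1 and 8 were all lower. Ddx28, an RNA helicase of large subunit assembly encoded on chromosome 8, was at 15.8 FPKM in WT against 8.06 in the library labelled Eed-/-. Ybey, an endonuclease, was at 3.84 and 1.81 FPKM, and the RNA methyltransferase gene Trmt61b was at 2.44 and 5.61. Of 16 translation factors 11 were lower, with a median of -0.12 (-0.42 to 0.17), 1 (6.25%) called higher and 3 (18.8%) lower. Tufm, the elongation factor that brings tRNAs to the ribosome, was at 5.21 and 8.62 FPKM. The release factor gene Mtrf1 was at 6.90 and 3.41 FPKM, and Taco1, an activator of cytochrome oxidase translation, at 19.3 and 10.4.

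The mitochondrial tRNA synthetases, which charge the tRNAs the ribosome uses, had 15 of 17 genes lower and a median of -0.18. Of the 17 genes 1 (5.88%) was called higher and 4 (23.5%) lower, beside 12.3% and 12.4% of all genes compared. All 4 of the synthetase genes on chromosomes 1 and 8 were lower. Ears2 was at 16.2 FPKM in WT against 5.58 in the library labelled Eed-/-, a difference of -1.25. Lars2 stood apart from the list, at 290 and 576 FPKM, a difference of 1.18. Of 13 regulators of mitochondrial biogenesis with a level, 8 were lower, with a median of -0.10, 2 (15.4%) called higher and 1 (7.69%) lower. Yy1 had a difference of -1.02, Esrra, a nuclear receptor that acts on oxidative genes, was at 3.48 and 5.63 FPKM with a difference of 0.68, and Gabpa had a difference of 0.65.

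For scale, 77 genes of oxidative phosphorylation, which include the partners of the proteins these ribosomes make, had a median difference of 0.00, with 9 (11.7%) called higher and 7 (9.09%) lower. The 79 cytosolic ribosomal protein genes had a median of 0.10, with 16 (20.3%) called higher and 10 (12.7%) lower, beside 12.3% and 12.4% of all genes compared. In the FPKM as deposited these medians were -0.24 and -0.08. The 95% order-statistic intervals of all these lists overlapped that of the 77 genes, and that of the tRNA synthetases, -0.45 to -0.06, did so between -0.10 and -0.06. These too are intervals over genes that share the same libraries, so their overlap is a description only.

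**Figure D5:**
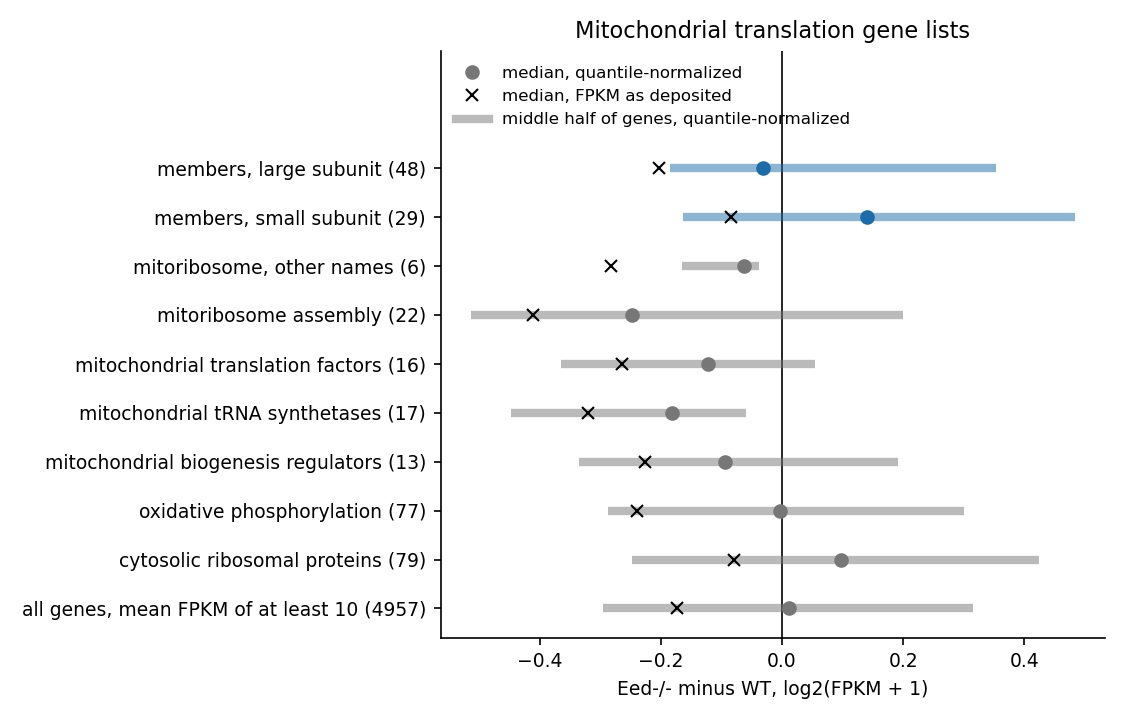
Median difference in log2(FPKM + 1), Eed-/- minus WT, for each gene list named on the y axis, with the number of genes in brackets. Dots are medians after quantile normalization, bars run from the lower to the upper quartile of the genes, and crosses are medians in the FPKM as deposited, which lie lower for every list shown, including all genes with a mean level of at least 10 FPKM at -0.17. The dots of the 2 subunits lie at -0.03 and 0.14.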

How the data were processed

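RNA levels of 1 WT and 1 Eed-/- mESC library were compared. The labels describe libraries that keep the strand, prepared after removal of ribosomal RNA. The authors aligned reads to mm9 and deposited FPKM for each gene symbol. The submitters' processing notes name Bowtie2 2.2.2, TopHat2 2.0.11 and Cufflinks 2.2.1, while the annotation and the options are not given in the sources used here. Samples of the other assays were not analysed here.

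Repeated symbols were summed, both libraries were quantile-normalized over all 24028 symbols with zeros kept, and differences were taken in log2(FPKM + 1), at a mean level of at least 0.1 FPKM and with folds of 1.5 and 2 as thresholds. No test was made, since each genotype had 1 library. The genes and the lists were chosen with earlier results of these data known. Every one of the 77 genes could be named. Those called, the 5 largest differences each way, the 3 highest and 3 lowest levels of each subunit, the stalk, the genes named for S18, Mrps30 and Mrps36 were given in full, together with all genes of other lists of up to 7 genes, or else the 3 largest differences at a mean of at least 1 FPKM. Of the genes this rule selects, 1 is not reported here.

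Positions and lengths came from GENCODE vM1 on NCBIM37, where all 77 genes matched, 1 of them (Mrpl57) by a RefSeq synonym. Depth was recovered from low values of 5463 genes with 1 transcript of at least 1000 bases, with 180 bases taken off each length, where 80.4% of 845 low values in WT and 80.1% of 951 in the library labelled Eed-/- lay within 0.1 of a whole number. For genes with several transcripts these numbers are approximate. Copies were sought with minimap2 2.31 (at least 80% of the length at 95% identity). Scripts were tested on simulated data. The software was Python 3.11.15 with scipy 1.17.1, numpy 2.4.6, matplotlib 3.10.9 and pandas 2.3.3.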

Additional observations from a re-analysis of the deposited data

How the results depend on the processing

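No paired analysis was possible because each genotype had 1 library. In the FPKM as deposited the median difference was -0.155 over the 77 genes and -0.20 over the large subunit genes, and the summed level ratio was 0.911. The median of all genes with a mean level of at least 10 FPKM was -0.17 on that scale. As deposited 5 of the 77 genes (6.49%) were at least 1.5-fold higher, beside 6.42% of all genes at such levels. On the lower side 10 (13.0%) were past 1.5-fold, beside 19.7%, and 2 were at least 2-fold lower. Median-ratio scaling gave 1 gene at least 2-fold lower and a ratio of 1.018. Pseudocounts of 0.1 and 0.01 each gave 2 genes at least 2-fold lower. Without the genes of chromosomes 1, 8 and X, 2 genes were at least 1.5-fold lower and the ratio was 1.12. The median of all 77 genes was -0.0032 without genes that have a near-identical copy. The large minus small subunit difference kept its sign in all 10 alternatives. Those with no filter and without symbols listed more than once gave the main value of -0.1716 again. They could not test it, since all 77 genes pass the filter and none is listed more than once. For the 17 genes with the largest differences or past 1.5-fold, 98 of 102 recomputed differences stayed within their counting interval and 0 changed direction. The other 4 moved beyond it (Mrpl15, Mrpl44, Mrpl10 and Mrps5, each in the FPKM as deposited). The 102 include those with no filter and with a mean of at least 1 FPKM. A filter cannot alter a gene's own difference, so the agreement in these settings was fixed in advance. With full transcript lengths 48 counting intervals excluded 0 in place of 39. Depth limits Mrpl23, Mrps33 and Mrps36, which rest on under 20 fragments per library.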
